A study of Drosophila melanogaster with 6 samples.

Results

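The proteins of 7 genes, Ldsdh1, Lsd-2, Lsd-1, bmm, mdy, Seipin and Jabba, sit on lipid droplets or build them, and their transcripts are described here in whole Drosophila melanogaster embryos. The array annotation names 11981 genes on probe sets of their own, and these 7 on 8 of 18769 probe sets, 1 per gene and 2 for Jabba. The group was chosen by the 6xbcd and 2xbcd signals of these arrays, in which Ldsdh1 was already known to be lower in 6xbcd embryos. The difference between the groups is therefore given for each of the 7 as a description, without a p-value.

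Embryos of 6xbcd mothers, labelled as carrying 6 copies of bicoid (bcd), came from TT16 males and bcd+t8 females (3 batches). Embryos of 2xbcd mothers, the controls with 2 copies, came from TT16 males and TT16 females (3 batches). Both groups shared the TT16 fathers, a 90 min egg collection, 8 h at 25 degrees and removal of unfertilised eggs, and were at stages 12 to 13. Each batch of over 100 eggs was measured on 1 Affymetrix Drosophila Genome 2.0 array. The mothers' stock, their bcd copies and the embryos' own genotype changed together, so that these cannot be told apart. A lower signal in such a whole-embryo sample can come from fewer cells of a type or from less RNA per cell, which cannot be told apart either.

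Lipid droplets are stores of triglyceride and sterol esters wrapped in a single phospholipid layer and coated with proteins. A Drosophila mother loads her egg with many of them. In the early embryo they move along microtubules, they hold spare histones, and later their fat is used as fuel and as building material. Perilipins on the surface, called Lsd-1 and Lsd-2 in the fly, govern the access of lipases. The lipase Brummer breaks triglyceride down, diacylglycerol acyltransferase makes it, and Seipin shapes new droplets at the endoplasmic reticulum.

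Of the 7 genes, Ldsdh1 and Lsd-2 had clearly lower signals in 6xbcd than in 2xbcd embryos. Lsd-1 and bmm had somewhat higher mean signals, with overlap of the groups for bmm. The signals of mdy and Seipin overlapped closely between the groups. Jabba was at or near background on nearly every array. Of the 8 probe sets, 6 had a present call on all 6 arrays and entered the fit of 10137 probe sets, which asked for a present call on at least 3 arrays. Neither probe set of Jabba entered.

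**Figure D1:**
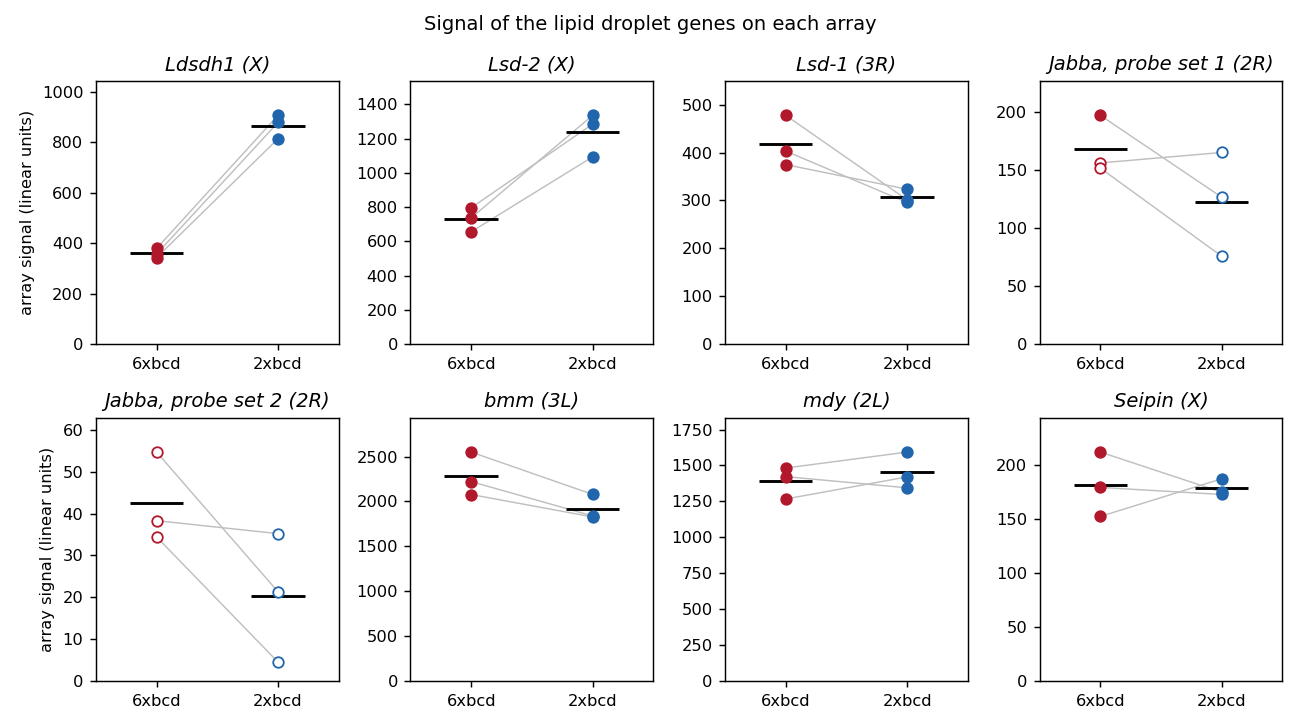
Signal of each probe set on each array on a linear axis from 0, with 6xbcd embryos left in red and 2xbcd embryos right in blue. Filled points had a present call, open points a marginal or absent call, bars are group means and grey lines join the replicate pairs. For Ldsdh1 and Lsd-2 every 6xbcd point lies below every 2xbcd point, and for Lsd-1 every 6xbcd point lies above.

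Ldsdh1 encodes a short-chain dehydrogenase found on a subset of lipid droplets. Its probe set, 1626503_at, read 357.5, 379.3 and 343.1 on the 6xbcd arrays of replicates 1, 2 and 3, against 878.0, 906.2 and 813.6 on the 2xbcd arrays. All 3 arrays of 6xbcd embryos were low and all 3 of 2xbcd embryos high, with a wide gap between the groups. Its mean was 360.0 ± 18.2 in 6xbcd embryos, against 866 ± 47.5 in 2xbcd embryos (SD, n = 3 each), a signal 2.41-fold higher in 2xbcd. On the scale of log2(signal + 16) it changed by -1.23 (SE 0.0802, 95% interval -1.43 to -1.03). The 3 pairs changed by -1.26, -1.22 and -1.21, the closest agreement among the 6 tested genes. Ranked from the lowest change of all 10137 tested probe sets, Ldsdh1 stood at place 13. The authors' deposited table gave it log2 ratios of -1.1, -1.1 and -1.2, with a decrease call in all 3 pairs.

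Lsd-2, the fly perilipin 2, coats droplets, protects them from lipases and takes part in their transport in the early embryo. Its probe set, 1637359_at, read 796.2, 655.9 and 737.1 in 6xbcd embryos, against 1284.6, 1093.4 and 1335.7 in 2xbcd embryos. The groups did not overlap, and replicate 2 was the lowest array within each of them. Its mean was 729.7 ± 70.4 in 6xbcd embryos, against 1238 ± 128 in 2xbcd embryos (SD, n = 3 each), so that the 6xbcd signal was 0.589 times that of 2xbcd. The log2 change was -0.75 (SE 0.0678, 95% interval -0.92 to -0.58), and the pairs changed by -0.68, -0.72 and -0.84. Lsd-2 stood at place 58 from the lowest change. In the authors' deposited table its log2 ratios were -0.6, -0.6 and -0.9, again with a decrease call in every pair.

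Lsd-1, the fly perilipin 1, is the coat protein through which protein kinase A and adipokinetic hormone stimulate lipolysis. It differed in the direction opposite to its paralog Lsd-2. Its probe set, 1636510_a_at, read 477.5, 374.7 and 402.9 in 6xbcd embryos, against 301.2, 323.3 and 295.7 in 2xbcd embryos. Again the groups did not overlap, but the 6xbcd arrays were the more scattered, with a coefficient of variation of 12.7% in 6xbcd and 4.76% in 2xbcd embryos. Its mean was 418 ± 53.1 in 6xbcd embryos, against 307 ± 14.6 in 2xbcd embryos (SD, n = 3 each), 1.36 times as high. The log2 change was 0.42 (SE 0.128, 95% interval 0.10 to 0.74). Pairs 1 and 3, with 0.64 and 0.43, carried most of it, while pair 2 gave 0.20. Ranked from the highest change of all tested probe sets, Lsd-1 stood at place 871. The authors' deposited table called an increase in pairs 1 and 3 and no change in pair 2.

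Brummer, the product of bmm, is the fly's adipose triglyceride lipase. Its probe set, 1640754_at, read 2551.1, 2077.5 and 2221.6 in 6xbcd embryos, against 2079.3, 1828.3 and 1839.2 in 2xbcd embryos. The 6xbcd array was the higher one in each pair, but the groups touched, since 6xbcd replicate 2 lay just under 2xbcd replicate 1. Its mean was 2283 ± 243 in 6xbcd embryos, against 1916 ± 142 in 2xbcd embryos (SD, n = 3 each). The log2 change was 0.25 (SE 0.0558, 95% interval 0.11 to 0.39), with 0.29, 0.18 and 0.27 in the pairs. From the highest change of all tested probe sets, bmm stood at place 1656. Only pair 3 had an increase call in the authors' deposited table, and pairs 1 and 2 had a call of no change.

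The gene mdy (midway) encodes diacylglycerol acyltransferase 1, which makes the triglyceride of the droplet core. Its probe set, 1636579_s_at, read 1482.3, 1422.3 and 1266.8 in 6xbcd embryos, against 1593.4, 1344.3 and 1420.5 in 2xbcd embryos, and the groups overlapped. Its mean was 1390.5 ± 111 in 6xbcd embryos, against 1453 ± 128 in 2xbcd embryos (SD, n = 3 each). The log2 change was -0.06 with a 95% interval of -0.24 to 0.11, and the pairs differed in sign. By Affymetrix naming the ending of this probe set marks probes that can match transcripts of more than 1 gene, so that its signal may not be of mdy alone. The same limit holds for the probe sets given below for Agpat1, ATPCL, SREBP, whd, Pcyt1, apt, CG10347, CG3777, CG34015 and sordd1.

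Seipin acts where droplets bud from the endoplasmic reticulum and keeps their size even. Its probe set, 1628623_at, read 152.0, 178.8 and 211.5 in 6xbcd embryos, against 186.8, 172.3 and 174.4 in 2xbcd embryos. The 2xbcd arrays lay inside the range of the 6xbcd arrays. Its mean was 181 ± 29.8 in 6xbcd embryos, against 178 ± 7.84 in 2xbcd embryos (SD, n = 3 each). The log2 change was 0.01, and its 95% interval of -0.42 to 0.44 was the widest of the 6 tested genes. With quantile normalization its change was -0.09. For mdy and Seipin the authors' deposited table called no change in any pair.

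Jabba anchors histones on the droplets of the egg and early embryo. Its brighter probe set, 1633076_at, read 156.3, 151.8 and 197.3 in 6xbcd embryos, against 165.3, 75.8 and 126.7 in 2xbcd embryos. Only 6xbcd replicate 3 had a present call, so that 0 of 3 arrays of 2xbcd embryos detected it. Its other probe set, 1640505_at, was absent on all 6 arrays, at 54.7, 38.3 and 34.4 in 6xbcd and 21.3, 35.2 and 4.5 in 2xbcd embryos. No fold is given for Jabba, since its signal was not well above background in either group.

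**Figure D2:**
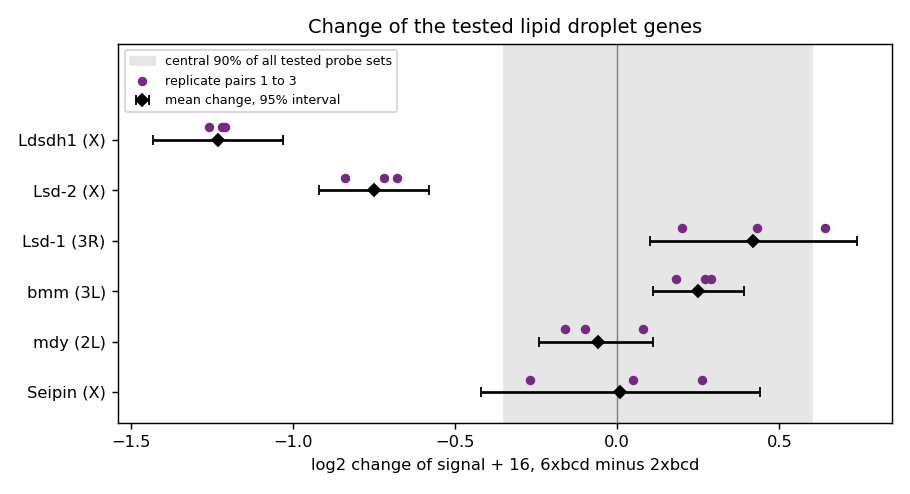
Log2 change, 6xbcd minus 2xbcd, of the 6 tested lipid droplet genes, with the limma mean and its 95% interval (diamond and bar) and the 3 replicate pairs (dots). The grey band runs from -0.35 to 0.60 and holds the central 90% of all tested probe sets. Ldsdh1 and Lsd-2 lie left of the band, and the means of the other 4 lie within it.

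Over all 10137 tested probe sets the median log2 change was 0.01, and 90% of them lay between -0.35 and 0.60. In the limma fit 134 probe sets had a Benjamini-Hochberg adjusted p under 0.05, which is 1.32% of those tested (0.572% lower and 0.75% higher in 6xbcd). Of the 6 tested droplet genes, Lsd-1, bmm, mdy and Seipin were not among these called probe sets, while Ldsdh1 and Lsd-2 were, both lower. Since the list was made with this difference known, the count of 2 is a description and supports nothing further. All 6xbcd arrays lay below all 2xbcd arrays for 2 of the 6 genes, against 8.68% of all tested probe sets, and above them for 1, against 7.38%. The authors' deposited table had a decrease call in all 3 pairs for 1.01% of tested probe sets. It had an increase call in all 3 pairs for 1.39%, in at least 2 pairs, as for Lsd-1, for 5.28% and in at least 1 pair, as for bmm, for 18.3%. A call of no change in all 3 pairs, as for mdy and Seipin, was given to 69.0%.

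The 2 calls depended on pairs 1 and 2 and on the variance model, while the changes hardly moved. Without the intensity trend neither gene was called, with log2 changes of -1.23 for Ldsdh1 and -0.75 for Lsd-2 as before. Neither was called without replicate pair 1, where the changes were -1.22 and -0.78, or without pair 2, where they were -1.23 and -0.76. Without pair 3 both were called, with changes of -1.24 for Ldsdh1 and -0.70 for Lsd-2. Lsd-2 also lost its call when any of the 6 arrays was left out, with changes from -0.83 to -0.68. Ldsdh1 kept its call in each of those fits, with changes from -1.27 to -1.20. Under the 19 alternatives Ldsdh1 was called in 16 and Lsd-2 in 10. The whole count of called probe sets was 17 without pair 1, 10 without pair 2 and 270 without pair 3.

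**Figure D3:**
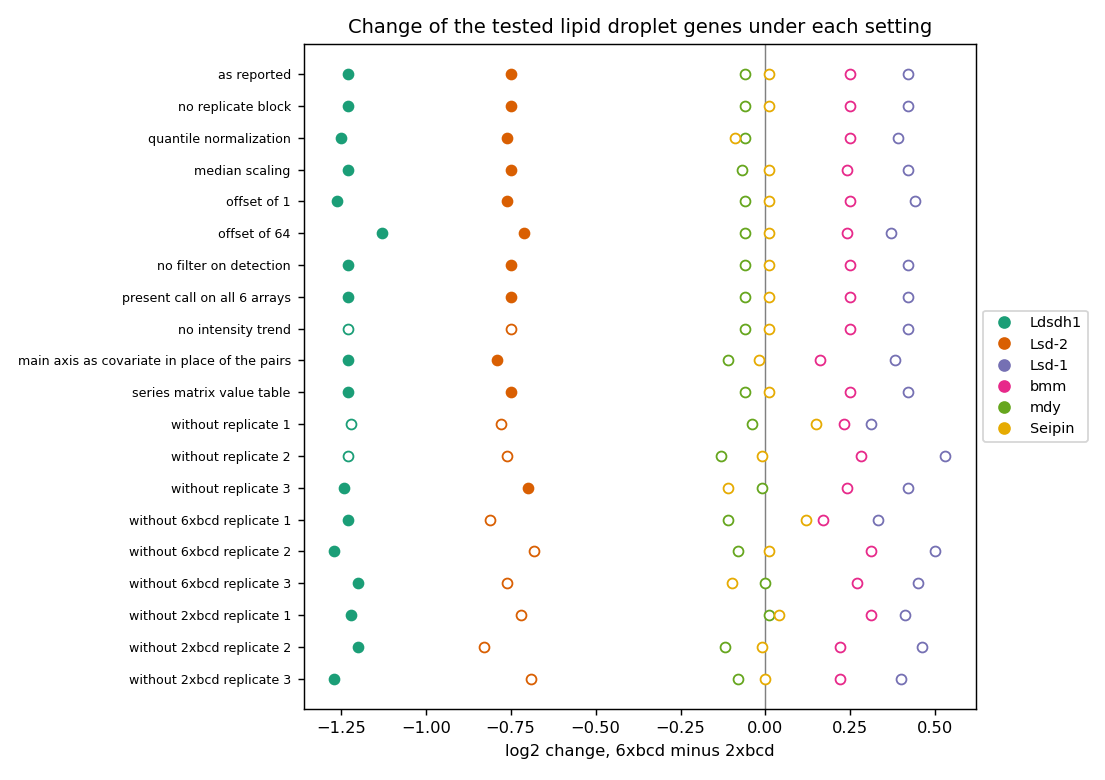
Log2 change, 6xbcd minus 2xbcd, of the 6 tested lipid droplet genes as reported and under each other setting, 1 row per setting. Filled points were among the called probe sets of that fit and open points were not. Ldsdh1 stays between -1.27 and -1.13 and Lsd-2 between -0.83 and -0.68, while mdy and Seipin fall on both sides of 0.

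The arrays differed along a main axis that did not separate the groups and held 53.5% of the variance of the tested probe sets. Positions on this axis were -21.45, 6.87 and -21.57 for 6xbcd replicates 1, 2 and 3, against -22.3, 19.07 and 39.37 for 2xbcd. The highest positions were those of 2xbcd replicates 2 and 3, so that this axis was not independent of the groups. Of the 6 genes, bmm followed this axis most closely, with a Pearson correlation of -0.81 over the 6 arrays. When that axis replaced the pairs in the fit, the log2 change of bmm was 0.16, and that of Lsd-1 was 0.38. The changes of Ldsdh1 and Lsd-2 were -1.23 and -0.79 in that fit, in which both were called.

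Among themselves, the genes varied in ways that the group difference hid. Over the 6 arrays Ldsdh1 and Lsd-2 correlated at 0.93, but after subtraction of the group means at -0.77, so that within the groups they went opposite ways. Lsd-1 and bmm correlated at 0.88 over the 6 arrays and at 0.70 after that subtraction, with 6xbcd replicate 1 the highest array for both. These values describe 6 arrays that share the group difference and the authors' scaling, and no test was made on them. Only Ldsdh1 had a coefficient of variation under 6% in both groups, at 5.06% in 6xbcd and 5.48% in 2xbcd embryos.

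The genes whose signals went most like a droplet gene over the 6 arrays differed by member. For Ldsdh1 they were Ykt6, a SNARE of membrane fusion (Pearson r = 0.995), CG10347 (0.990) and Vps4, an ATPase of endosomal sorting (0.990), all 3 X-linked like Ldsdh1. Vps4 read 781.7, 853.1 and 787.3 in 6xbcd embryos, against 1094.1, 1139.4 and 1062.7 in 2xbcd embryos. For Lsd-2 they were tap on 3L, a proneural-type transcription factor (0.994), EndoU on 3R (0.992) and CG3777 on the X (0.987). For Lsd-1 they were Acsx3 (0.987), CG8915 (0.983) and CG34015 (0.982). For bmm they were snk, a serine protease of dorsoventral patterning (0.999), Oatp33Ea, an organic anion transporter (0.992), and a probe set of Gpdh1, glycerol-3-phosphate dehydrogenase (0.987). That Gpdh1 probe set read 2619.9, 2057.4 and 2226.9 in 6xbcd embryos, against 2105.3, 1880.9 and 1776.1 in 2xbcd embryos. For mdy they were Rbp (0.986), Cdk5alpha (0.979) and sordd1 (0.973), and for Seipin CG14502 (0.981), RpL3 (0.977) and Actbeta (0.971). The probe sets of snk (27.6 to 53.2), Rbp (20.9 to 76.0) and CG14502 (32.2 to 61.1) were dim on all 6 arrays. All of these genes are the closest matches out of all tested probe sets of a single gene, and no test was made on them. High values thus arose also for Seipin, whose change was 0.01. For Ldsdh1 and Lsd-2 the values include the group difference with which the genes were chosen.

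By chromosome, Ldsdh1, Lsd-2 and Seipin are X-linked, and Lsd-1 on 3R, bmm on 3L, mdy on 2L and Jabba on 2R are autosomal. Both called droplet genes are thus X-linked, while Seipin on the same chromosome had a change of 0.01. Among 1411 tested probe sets of the X, 3.83% were called in either direction and 1.84% as lower in 6xbcd, against 0.733% in either direction among 7370 autosomal ones.

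The genes next to the droplet genes were taken as the 3 nearest tested genes on each side in the gene table, 42 in all. CG2233, the third tested gene before Ldsdh1, was the only one of them that passed the test, and it rose. It read 579.1, 792.1 and 657.7 in 6xbcd embryos, against 122.4, 237.0 and 89.9 in 2xbcd embryos, with a log2 change of 2.15 (SE 0.206, limma adjusted p = 0.0207, higher in 3 of 3 pairs). Its call was lost without replicate pair 1 (adjusted p = 0.0967), without pair 2 (0.0894), without the intensity trend (0.14) and without 5 of the 6 arrays taken singly, all but 2xbcd replicate 2, with adjusted p from 0.000208 to 0.150 over all samples left out. Of the nearest tested genes on either side of Ldsdh1, Upf2, a factor of nonsense-mediated decay, had a log2 change of -0.37 (limma adjusted p = 0.342). The other, CG2258, had one of 0.31 (limma adjusted p = 0.387). The change of CG2258 was 0.06 without 2xbcd replicate 3.

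The nearest tested gene before Lsd-2 is dob (doppelganger von brummer), a lipase gene related to bmm. It read 423.9, 325.9 and 275.0 in 6xbcd embryos, against 401.3, 223.5 and 152.9 in 2xbcd embryos. Its 6xbcd array was the higher one in each pair, the groups overlapped, and the log2 change of 0.46 (SE 0.171) did not pass the test (limma adjusted p = 0.308). Single arrays moved it, to 0.81 without 2xbcd replicate 1 and to 0.16 without 2xbcd replicate 3, and it was 0.05 with the main axis in the fit. On the other side CG33177, a dim probe set, had a log2 change of -0.45 (limma adjusted p = 0.506), which was -0.06 without 6xbcd replicate 2, -0.93 with an offset of 1 and -0.18 with an offset of 64. Of the 42 neighbours 2.38% were called and 16.7%, or 7, had an unadjusted p under 0.05, shares near the 1.32% and 14.9% of all tested probe sets. The median log2 change of the 42 was 0.03.

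**Figure D4:**
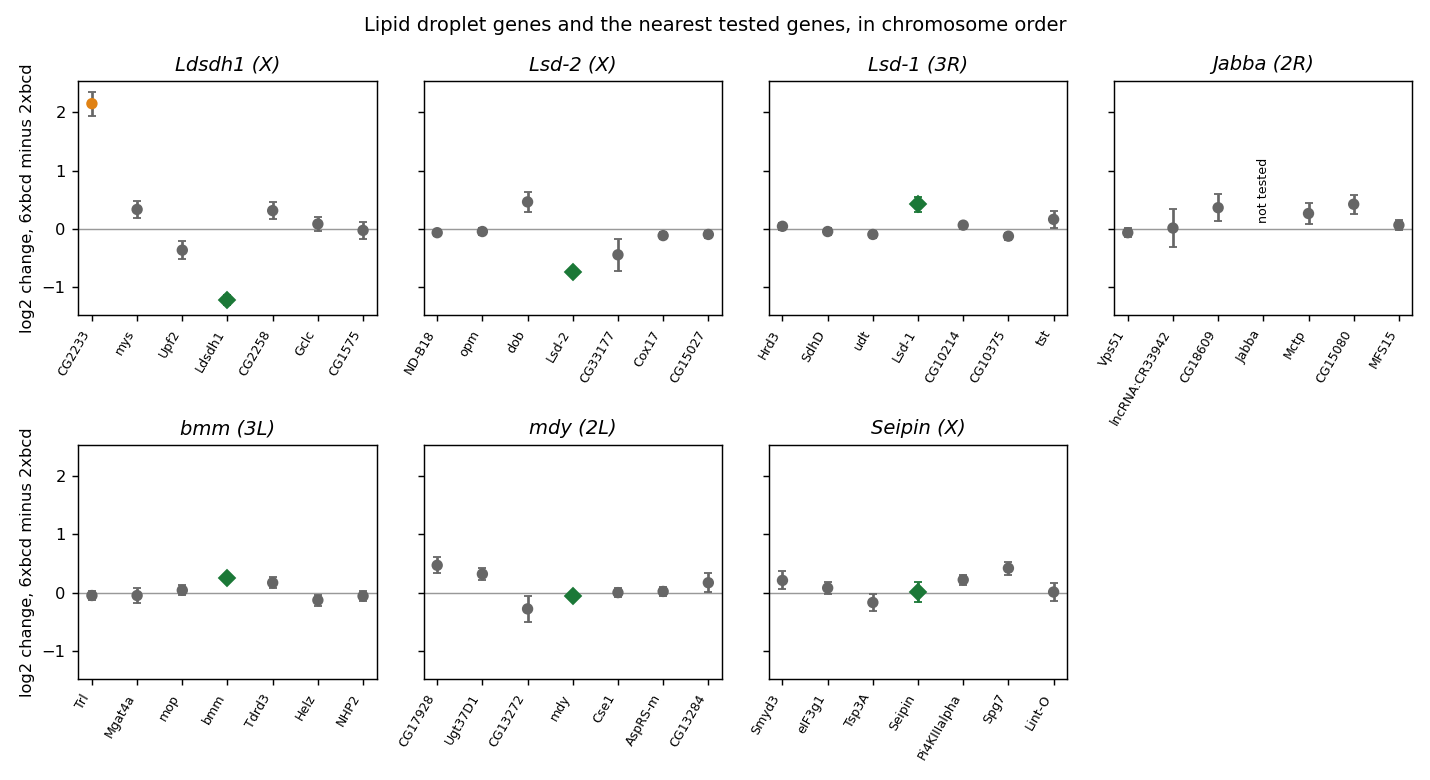
Log2 change, 6xbcd minus 2xbcd, with its standard error for each of the 6 tested lipid droplet genes (green diamond; Jabba, not tested, has only its neighbours) and the 3 nearest tested genes on each side, in chromosome order and not to scale. Orange marks a neighbour that passed an adjusted p of 0.05. CG2233 at 2.15 is the only orange point, and the genes on both sides of Ldsdh1 and Lsd-2 lie above them.

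Genes of the pathways around the droplet were read as 9 lists with 75 tested genes in all, each gene counted once and taken by its brightest probe set. Of these 75 genes 1 rose and 1 fell, which is 2.67% against 1.32% of all tested probe sets, and both are X-linked, as were 9 of the 75. An unadjusted p under 0.05 was reached by 12 of the 75, against 14.9% of all tested probe sets. The median log2 change of the 75 was 0.02, against 0.01 over all tested probe sets.

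The gene that rose was scu (scully), a mitochondrial short-chain dehydrogenase of fatty acid oxidation and steroid metabolism. It read 1948.2, 2160.1 and 2039.3 in 6xbcd embryos, against 1185.9, 1330.2 and 1314.0 in 2xbcd embryos. The groups stood far apart, with a log2 change of 0.68 (SE 0.0551, limma adjusted p = 0.0128, higher in 3 of 3 pairs). The gene that fell was Acat1, an acetyl-CoA acetyltransferase. It read 201.2, 195.9 and 210.1 in 6xbcd embryos, against 434.1, 414.1 and 418.7 in 2xbcd embryos, a log2 change of -1.01 (SE 0.118, limma adjusted p = 0.0266, lower in 3 of 3 pairs). Both calls were lost without replicate pair 1 (limma adjusted p = 0.0760 for scu and 0.139 for Acat1), without pair 2 (0.125 and 0.237) and without the intensity trend (0.14 and 0.1). With a pair or array left out, the adjusted p ran from 0.00115 to 0.125 for scu and from 0.00976 to 0.237 for Acat1. Of the single arrays, leaving out 6xbcd replicate 2 or 3 or 2xbcd replicate 2 ended the call of scu, and leaving out any but 2xbcd replicate 1 ended that of Acat1.

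In triglyceride synthesis none of 9 tested genes passed in limma, and 2 had an unadjusted p under 0.05. The acyltransferase gene mino read 864.7, 817.5 and 716.1 in 6xbcd embryos, against 628.9, 639.6 and 601.4 in 2xbcd embryos, without overlap. Its log2 change was 0.35 (SE 0.0785, limma adjusted p = 0.142). Agpat1, a lysophosphatidic acid acyltransferase, had 0.64 (SE 0.215, limma adjusted p = 0.272). Dgat2, which shares the last step of triglyceride synthesis with mdy, had 0.42 (SE 0.175, limma adjusted p = 0.344). The brightest of 4 tested Gpdh1 probe sets had a log2 change of -0.00, and the other 3 had 0.26, -0.06 and -0.47, so that the probe sets of this gene disagree.

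Among lipases, 0 of 7 passed in limma (1 at an unadjusted p under 0.05), with a median log2 change of 0.15. Besides dob, Lip2 had 0.42 and mag (magro), a gut lipase, had 0.58, which was -0.29 with the main axis as covariate and -0.02 without replicate pair 3. In the signals that reach perilipin and bmm, 0 of 7 passed (0 at an unadjusted p under 0.05). The receptor of adipokinetic hormone, AkhR, had a log2 change of 0.42 (limma adjusted p = 0.488), the insulin receptor InR -0.12 and CrebB 0.41. Among genes of droplet transport, 0 of 11 passed (1 at an unadjusted p under 0.05), with Nup154 at 0.16, sun at -0.18 and BicD, an adaptor of dynein, at 0.14, which was -0.08 with the main axis as covariate. The changes of all 11 lay between -0.18 and 0.16.

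Of 11 fatty acid synthesis genes 0 passed (1 at an unadjusted p under 0.05). SCAP, the escort of the lipid sensor SREBP, had a log2 change of -0.23 (SE 0.0811, limma adjusted p = 0.288), ATPCL, ATP citrate lyase, had -0.56 and SREBP itself 0.09. Apart from scu, no other of 8 beta oxidation genes passed (2 of the 8 at an unadjusted p under 0.05), with Mtpbeta at 0.21 and whd, carnitine palmitoyltransferase, at -0.18. Of 8 phospholipid synthesis genes 0 passed (1 at an unadjusted p under 0.05), with Pss at 0.17, Pcyt1 at -0.12 and bbc at -0.08. Of 7 lipoprotein and yolk genes 0 passed (1 at an unadjusted p under 0.05). There the lipophorin receptor gene LpR1 had 0.55 (SE 0.195, limma adjusted p = 0.287), LpR2 had 0.56 and apolpp, the lipophorin precursor, -0.29 (SE 0.129, limma adjusted p = 0.370). The change of LpR2 was 0.12 without replicate pair 3, 0.91 without 2xbcd replicate 1 and 0.05 with the main axis in the fit, and that of apolpp was -0.15 without 6xbcd replicate 3. In the sterol list of 9 genes, scu and Acat1 passed and 4 had an unadjusted p under 0.05. There Npc2a, a sterol carrier, had 0.34 (limma adjusted p = 0.193), which was 0.13 without 2xbcd replicate 3. Of the 27 genes of these lists and beside Ldsdh1 and Lsd-2 that are named without a call, 23 had a log2 change that moved over 1.5 times when a pair or array was left out.

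**Figure D5:**
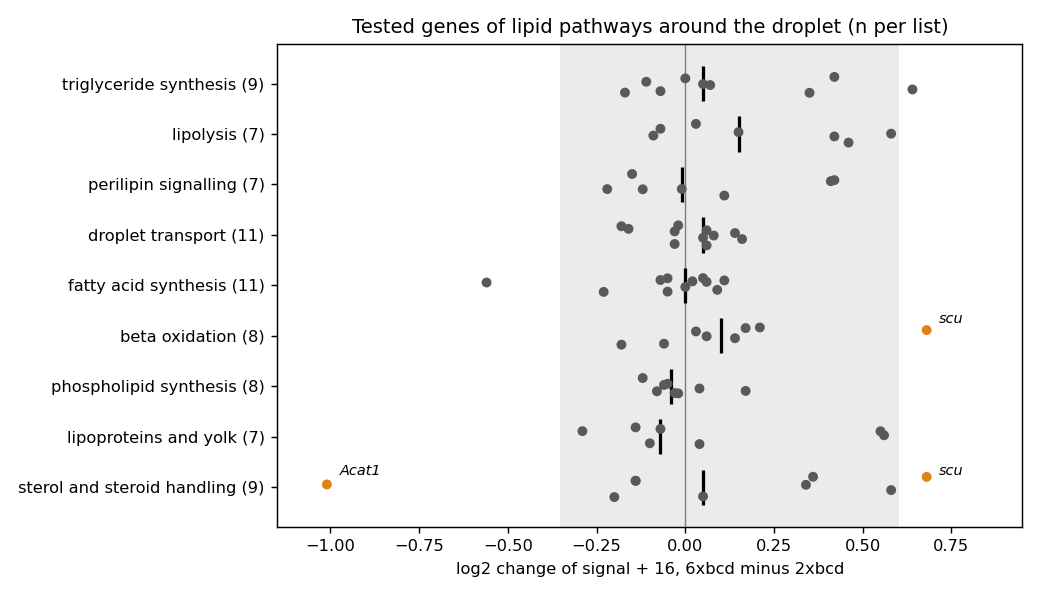
Log2 change, 6xbcd minus 2xbcd, of each tested gene in 9 lists of lipid pathways, with the number tested in parentheses and a black bar at each list's median. Orange points passed an adjusted p of 0.05, and the grey band, from -0.35 to 0.60, holds the central 90% of all tested probe sets. Acat1 and scu, which stands in 2 lists, are the only orange points.

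Genes that define embryonic tissues were detected. Over all tested probe sets 14.9% had an unadjusted p under 0.05, 47.3% a negative change and 16.1% no overlap of the groups. The neural gene elav read from 6900.7 to 9456.7 over all arrays, and the fat body and blood gene srp from 1753.8 to 2987.8. Of 4 tested genes of fat body and oenocytes 0 passed (1 at an unadjusted p under 0.05), with log2 changes of -0.19 to 0.30, and of 4 of gut and yolk cells 0 passed (1 likewise), with -0.04 to 0.33. None of 3 nervous system genes passed (2 at an unadjusted p under 0.05), and all 3 had negative mean changes, of -0.37 to -0.08. For fne and repo the groups did not overlap and 3 of 3 pairs were lower, but elav was lower in only 1 of 3 pairs. None of 3 tracheal genes passed (1 likewise), and all 3 means were again negative, from -0.43 to -0.24. Of these, btl was lower in 3 of 3 pairs, and vvl and apt in 2 of 3. Of 4 epidermal genes 0 passed (2 likewise), with -0.43 to 0.77. Of 5 listed muscle genes only up was tested. Its log2 change was 0.38 (SE 0.481, limma adjusted p = 0.76), though it was lower in 2 of 3 pairs. Of 5 maternal RNAs only bcd passed, and 3 had an unadjusted p under 0.05. Its signal was 2335.1, 1497.4 and 1375.1 in 6xbcd and 860.6, 546.4 and 301.0 in 2xbcd embryos (log2 change 1.66, limma adjusted p = 0.0189). Of the other maternal RNAs, swa had 0.72, osk 0.63 and aub 0.43, each higher in 3 of 3 pairs, and gcl had -0.04. Besides fne and repo, the groups did not overlap for GATAe, bcd, aub and osk, all of them higher in 6xbcd. The part of these tissues and maternal RNAs in the signals of the droplet genes was not tested.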

How the data were processed

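Each of the 6 arrays measured total RNA from 1 batch of embryos. Per the submitters' processing notes GCOS, of a version not given in the sources used here, was used. What the authors deposited is a linear intensity, here called signal, with a mean of 500.0 on each array after trimming 2% per end. Detection calls of each array and, for each pair, the authors' log2 ratios, change calls and change p-values stand beside it, per the file headers. The second deposited table held the same signals.

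Control probe sets (183 of 18952) were left out. No further scaling was applied before taking log2(signal + 16), so that folds of dim probe sets are understated. Probe sets called present on 3 or more of the 6 arrays were fitted with limma 3.58.1 in R 4.3.3 (lmFit, and eBayes with an intensity trend, 2 residual and 3.56 prior degrees of freedom), two-sided, with Benjamini-Hochberg adjustment over all 10137. The fit was tested on simulated data. The replicate number was a block, because the design text calls the experiments paired. Deviations from the group means correlated at 0.437, 0.385 and -0.190 within pairs 1, 2 and 3. Between arrays of different pairs they correlated at -0.629 to 0.422. The highest of these, 6xbcd replicate 2 with 2xbcd replicate 3, was above pair 2, so that these values do not bear out the pairing. The number of arrays limits the precision.

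Gene symbols were updated by Entrez number through a table of Drosophila Release 6, which served for symbols, chromosome arms and the order of genes (Python 3.11.15, pandas 2.3.3). The 110 list entries gave 92 different current symbols, with entries of the same symbol counted once and the 7 droplet genes left out. Of these, 83 had a probe set of their own and 75 a tested one. Named from the lists were genes that passed and otherwise the 3 with the smallest p per list. Gene order and likeness gave the others. The Vps4 and Gpdh1 signals were picked for printing with their values in view. The planned search for promoter motifs was not made, and no sequence is used here. The members and lists were chosen with earlier results of these data known. Alternatives were no block, other scalings, offsets and filters, no trend, the main axis as covariate, the other table, a looser threshold, and pairs or arrays left out.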

Additional observations from a re-analysis of the deposited data

How the results depend on the processing

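Of the 6 tested droplet genes, Lsd-1, mdy and Seipin moved by less than the spread between pairs under all 19 alternatives. That spread was the SD of each gene's own pair changes, at 0.22, 0.125 and 0.267 for these genes. It was 0.0265 for Ldsdh1, 0.0833 for Lsd-2 and 0.0586 for bmm, so that the more scattered genes stay within it more easily. Lsd-1 and bmm were called under none of the alternatives. For Ldsdh1 the log2 change was -1.26 with an offset of 1 and -1.13 with an offset of 64, and with pairs or arrays left out it ran from -1.27 to -1.20, for Lsd-2 from -0.83 to -0.68 and for bmm from 0.17 to 0.31. With the main axis as covariate bmm had 0.16. The 134 called probe sets became 5 without the intensity trend, 247 at an adjusted p of 0.1, and 10 to 270 with pairs or arrays left out. The 2 called droplet genes became 0 in limma without the trend and 0 to 2 with samples left out. The 2 called genes of the lipid lists likewise became 0 (10 at an unadjusted p under 0.05) and 0 to 2. The 1 called neighbour became 0 (10 unadjusted), 2 with the main axis and 0 to 3. The unadjusted share of all probe sets was not taken without the trend, so that these counts of 10 have no background. The cause of these shifts was not tested. Without the replicate block the counts were 97 probe sets, 2 droplet genes, 2 list genes and 1 neighbour, so that the pairing changed the count over all probe sets but no call among the droplet, list and neighbouring genes. Signs turned for mag (-0.29 with the main axis, -0.02 without replicate 3, up to 1.18 with others left out) and BicD (-0.08 with the main axis), neither called. Fits that leave out 1 array were made without pairs. Dim probe sets, as those of Jabba, are limited by background.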
